A study of Rattus norvegicus with 8 samples.

Results

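Microglia, the resident macrophages of the brain, carry a set of surface receptors and secreted complement proteins by which they sense and clear material around neurons. The genes described here are 10 of these: the receptor and signalling genes Trem2, Tyrobp, Csf1r, Cx3cr1 and Itgam, the complement genes C1qa, C1qb and C1qc, the antigen presentation gene Cd74 and the cytoskeletal gene Aif1. They were taken by name, as every probe set (a group of short probes for 1 transcript) whose only gene symbol in the platform's annotation was one of the 10. This gave 12 probe sets of the 31042 on the array that were not controls. Trem2 and Aif1 had more than 1 probe set each.

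The measurements were made on frontal cortex. The animals were male Sprague-Dawley rats weighing about 200 g at the start. The treated rats received olanzapine, an atypical antipsychotic drug, by intraperitoneal injection at 2 mg/kg/day for 21 days, and the controls received saline for the same time. Each group held 20 rats, allocated at random, and arrays were made from 4 of each group, numbered 14, 15, 17 and 19 in saline and 9, 14, 18 and 19 in olanzapine. Each array is named below by group and animal number, and nothing else about genotype or age was given in the labels.

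Trem2 is a receptor for lipids and lipoproteins, and Tyrobp, also called DAP12, is the adaptor that passes its signal on. Csf1r is the receptor for the growth factors Csf1 and Il34, on which microglia depend for survival. Cx3cr1 is the receptor for the neuronal chemokine Cx3cl1, and Itgam pairs with Itgb2 to form complement receptor 3. C1qa, C1qb and C1qc encode the 3 chains of C1q, which starts the classical complement cascade and is made in brain mainly by microglia. Cd74 is the invariant chain that accompanies MHC class II molecules, and Aif1, or Iba1, is an actin-binding protein used as a microglial stain. In a piece of tissue, a lower level from fewer cells of a type and from less RNA per cell cannot be told apart.

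The tissue showed the transcripts of cortex. The neuron marker Snap25 lay at intensities of 18413 to 22959 in saline and 15287 to 17694 in olanzapine. The astrocyte marker Glul lay at 11178 to 13093 in saline and 8743 to 10718 in olanzapine. All olanzapine values were thus below all saline values for both, as for 2.07% of all tested probe sets. These 2 genes had the smallest p of their lists (limma adjusted p = 0.317 for each). Of the choroid plexus markers, 1 of 5 on the array passed the filter on dim probe sets. The microglial genes P2ry12, at 909 to 1282, and Tmem119, at 199 to 370, were measured on every array. Median intensities were 159 to 191 per array. The brightest transcripts were dimmer in olanzapine and in saline 19 than in the other saline arrays, with a 98th percentile of 5474 to 5735 and 5618 against 6174 to 6287. Saline 15 had the lowest median correlation with the other arrays, at 0.949. Depth has no meaning for these arrays, and their number limits the precision.

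Promoter windows, from 250 bases before to 50 after each gene's start, were in the RefSeq table of the GRCr8 assembly for 7 of the 10 genes. Those of Tyrobp, C1qc and Aif1 were not used here. Many macrophage genes are known to be bound by PU.1, a factor of the ETS family whose sites hold a GGAA core, so the letters GAGGAA and GGAAGT were searched on both strands. The motifs share the letters GGAA and can overlap. At least 1 of them was found in 7 of 7 windows, whereas 42.3% of all 33469 windows of that length held one. GAGGAA was in 5 of the 7 and in 27.6% of all windows, and GGAAGT in 3 of the 7 and in 22.6%. A match of letters is a description and not a binding site. The windows of Trem2, which had the largest difference between the groups, and of C1qa, which had the smallest among the tested genes, are shown 5′ to 3′ on the gene's strand, with the matches in capitals. The Trem2 window (chr9:20151730-20152029, GRCr8, minus strand) held 1 match, GAGGAA on the opposite strand, 29 bases before the start. The C1qa window (chr5:154419884-154420183, GRCr8, minus strand) held GGAAGT at 107 and 79 bases before the start.
Trem2: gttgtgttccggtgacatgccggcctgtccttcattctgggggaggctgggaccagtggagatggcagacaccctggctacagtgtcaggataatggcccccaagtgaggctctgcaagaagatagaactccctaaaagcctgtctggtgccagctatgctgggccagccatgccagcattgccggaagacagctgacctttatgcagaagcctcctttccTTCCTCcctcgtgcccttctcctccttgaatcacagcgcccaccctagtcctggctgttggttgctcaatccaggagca
C1qa: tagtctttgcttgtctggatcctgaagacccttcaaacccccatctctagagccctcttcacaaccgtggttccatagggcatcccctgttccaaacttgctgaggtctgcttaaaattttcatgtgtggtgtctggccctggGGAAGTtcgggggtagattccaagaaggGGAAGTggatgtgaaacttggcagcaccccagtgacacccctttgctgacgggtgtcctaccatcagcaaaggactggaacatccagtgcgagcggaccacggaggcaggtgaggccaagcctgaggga

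Values below are linear intensities as deposited, and tests were run on log2(intensity + 63.5). A log2 difference on this scale is olanzapine minus saline and understates the change of dim genes. A probe set was tested when its mean over the 8 arrays lay above the 40th percentile, which fell at an intensity of about 114. That mean takes in both groups, so a probe set dim in 1 group can pass through the other group. Of the 12 probe sets 7 passed, 1 each for Trem2, Tyrobp, Csf1r, C1qa, C1qc, Cd74 and Aif1. The 5 others, those of Cx3cr1, Itgam and C1qb and the second ones of Trem2 and Aif1, are given by their levels, with a value from a fit without the filter.

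By limma, 0 of the 7 tested probe sets passed a Benjamini-Hochberg adjusted p of 0.05, as did 0 of all 18625 tested (0%). At an unadjusted p under 0.05 there were 2 of the 7, Trem2 and Cd74, both with higher values in olanzapine. Across the array 8.32% of tested probe sets had such a p, 4.59% with higher and 3.73% with lower values in olanzapine. The share of 2 in 7 rests on few genes and is a description. Of the 7, 6 had a log2 difference above 0, where 56% of all tested probe sets did. That number was 4 of 7 after median centring, quantile normalization or cyclic loess, because the differences of C1qa and C1qc, close to 0, then lay below it, and 4 to 6 of 7 with 1 array left out. The median over the 7 genes was 0.23, and the median over all 10123 tested genes was 0.02. Without olanzapine 9 the median over the 7 was 0.14.

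**Figure D1:**
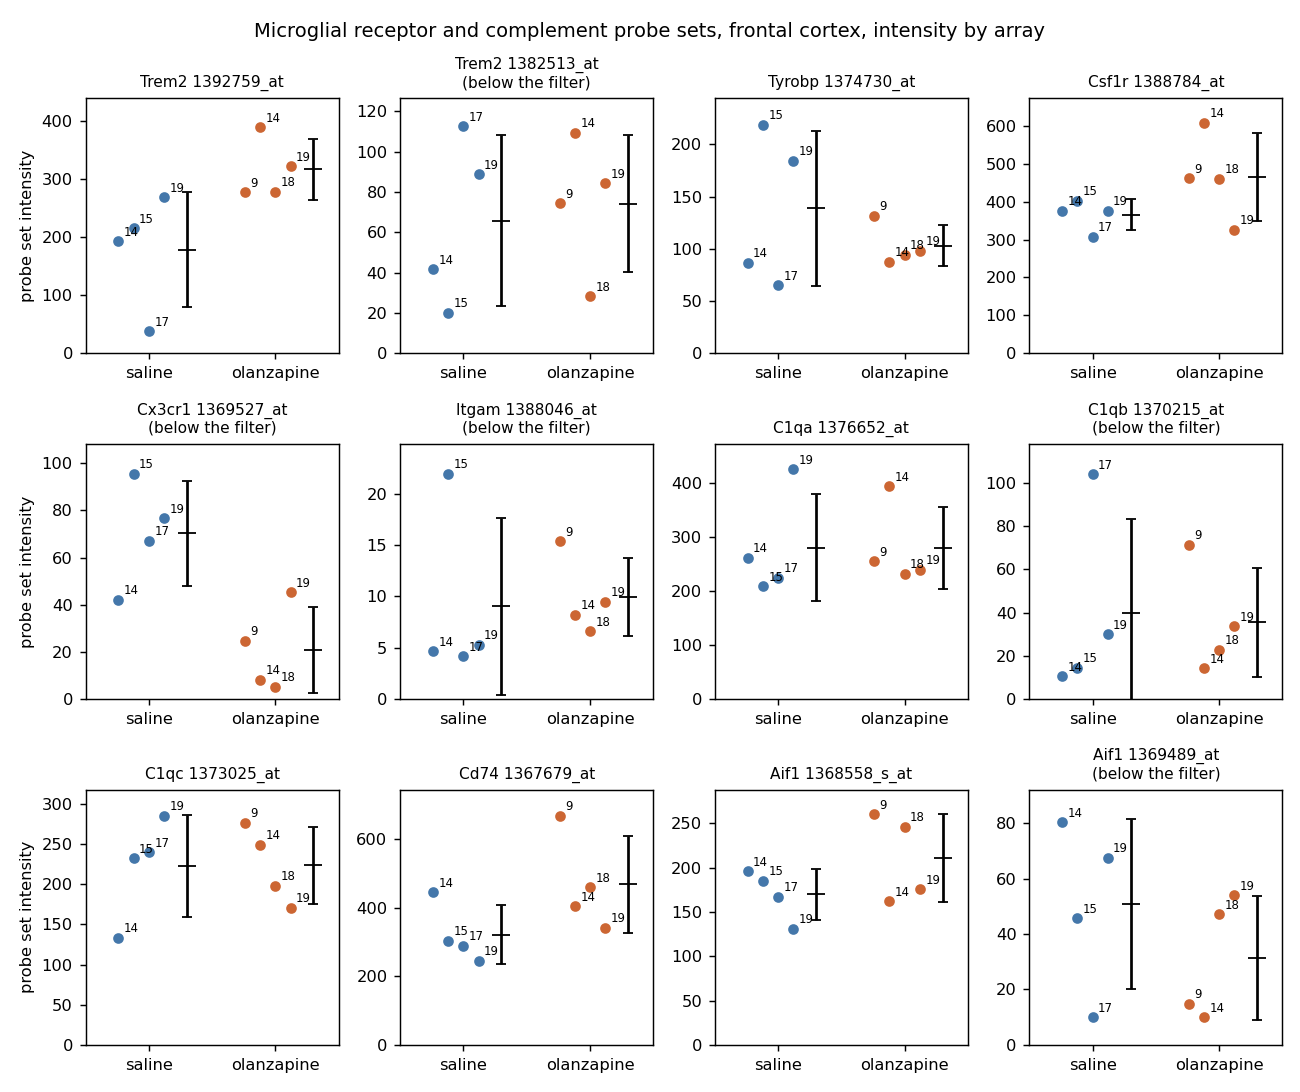
Intensity (linear axis from 0, no unit) of each of the 12 probe sets on the 4 saline (blue) and 4 olanzapine (orange) arrays. Each point is 1 animal with its number, and the black bars are the mean ± SD of 4 animals. Trem2 1392759_at is the probe set in which the 4 olanzapine points, from 277 to 389, all lie above the 4 saline points. Saline 17 lies far below the rest of its group there, at 38.3.

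Trem2 had the largest difference of the 7. Its tested probe set, 1392759_at, was at 193, 215, 38.3 and 268 in saline 14, 15, 17 and 19, and at 277, 389, 278 and 322 in olanzapine 9, 14, 18 and 19. All 4 olanzapine values lay above all 4 saline values, and saline 17 was far below the rest. Across the array 2.4% of tested probe sets had all olanzapine values above all saline values and 2.07% had all below. The mean was 179 ± 98.8 in saline and 317 ± 52.7 in olanzapine (SD, n = 4 each). The log2 difference was 0.77, with a 95% interval of 0.15 to 1.39 (limma p = 0.0188, adjusted p = 0.514, exact permutation p = 0.0286). Permuting the group labels in all 70 ways (exact, two-sided) cannot give a smaller p. Without saline 17 the difference was 0.40, and without the other arrays it was 0.68 to 0.96.

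The second Trem2 probe set, 1382513_at, was dim and did not show that pattern. It was at 41.7, 20.2, 113 and 88.7 in saline 14, 15, 17 and 19 and at 74.3, 109, 28.3 and 84.4 in olanzapine 9, 14, 18 and 19. Here saline 17 was the highest array, whereas it was the lowest in the first probe set. The groups overlapped, with a log2 difference of 0.11 and an interval of -0.50 to 0.73 in the fit without the filter (limma adjusted p = 0.958, exact permutation p = 0.83). The intervals of the 2 probe sets overlap, and whether they differ was not tested.

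Tyrobp, the adaptor that Trem2 signals through, had its difference on the other side of 0. It was at 86.7, 218, 64.9 and 184 in saline 14, 15, 17 and 19 and at 132, 87.6, 94.4 and 98.2 in olanzapine 9, 14, 18 and 19. Saline 15 and 19 were the high arrays, and saline 17 was the lowest of the 8, as it was for Trem2 1392759_at. The mean was 139 ± 74.4 in saline and 103 ± 19.6 in olanzapine (SD, n = 4 each), with a log2 difference of -0.21 and an interval of -0.78 to 0.36 (limma adjusted p = 0.878, exact permutation p = 0.457). Tyrobp lay only just above the filter, at percentile 40.1 of mean brightness. In olanzapine alone its mean lay below the filter, so it passed through its saline values. Its difference was -0.02 without saline 15 and -0.09 without saline 19, and -0.33 without saline 14 and -0.40 without saline 17.

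Csf1r, the growth factor receptor, was at 376, 402, 308 and 376 in saline 14, 15, 17 and 19 and at 461, 608, 461 and 325 in olanzapine 9, 14, 18 and 19. The olanzapine arrays were higher except for olanzapine 19, so the groups overlapped. The log2 difference was 0.28 with an interval of -0.08 to 0.63 (limma adjusted p = 0.721, exact permutation p = 0.229). It was 0.15 without olanzapine 14, the highest array, and 0.41 without olanzapine 19.

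Cx3cr1, the fractalkine receptor, was dim on every array and below the filter. Its intensities were 42.1, 95.6, 67.1 and 76.6 in saline 14, 15, 17 and 19 and 24.7, 8.26, 5.26 and 45.3 in olanzapine 9, 14, 18 and 19. All 4 olanzapine values were below the saline mean of 70.3, and the groups overlapped only where olanzapine 19 exceeded saline 14. In the fit without the filter its log2 difference was -0.67, with an interval of -1.11 to -0.24 (limma p = 0.00565, adjusted p = 0.612, exact permutation p = 0.0571). Without 1 array at a time it ran from -0.80 to -0.58, and with an added value of 16 in place of 63.5 it was -1.32. For intensities this low the size of a log2 difference rests on the value added. Among all 12 probe sets this was the largest difference below 0, and it ran opposite to those of Trem2 1392759_at and Csf1r.

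Itgam was near the bottom of the array, at 4.67, 21.9, 4.18 and 5.31 in saline 14, 15, 17 and 19 and at 15.4, 8.23, 6.63 and 9.47 in olanzapine 9, 14, 18 and 19. Its brightness percentile was 1.72, and saline 15 and olanzapine 9 were the higher arrays. The log2 difference of 0.02 in the fit without the filter (limma adjusted p = 0.982) therefore says little about this integrin chain. Its partner Itgb2 was measured and is given below.

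The tested C1q chains, C1qa and C1qc, did not show a difference between the groups, and C1qb lay below the filter. C1qa was at 263, 209, 225 and 426 in saline 14, 15, 17 and 19 and at 256, 394, 233 and 240 in olanzapine 9, 14, 18 and 19. One array in each group stood high, saline 19 and olanzapine 14. The means were 281 ± 99.4 and 281 ± 76.4 (SD, n = 4 each), and the log2 difference was 0.02 with an interval of -0.43 to 0.46 (limma adjusted p = 0.992, exact permutation p = 0.886). As a ratio of intensity + 63.5 the interval runs from 0.743 to 1.37, which is a narrower range than the same limits give in intensity itself.

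C1qc was at 134, 233, 240 and 285 in saline 14, 15, 17 and 19 and at 277, 249, 198 and 171 in olanzapine 9, 14, 18 and 19. Saline 14 was the lowest array, and the groups overlapped. Its log2 difference was 0.02 with an interval of -0.42 to 0.46 (limma adjusted p = 0.990, exact permutation p = 0.914). The sign of the C1qa and C1qc differences turned with the scaling: after quantile normalization they were -0.06 and -0.04. C1qb was dim, at 10.6, 14.5, 104 and 29.9 in saline 14, 15, 17 and 19 and at 71.3, 14.4, 22.9 and 33.6 in olanzapine 9, 14, 18 and 19. Saline 17 and olanzapine 9 were its high arrays. Without the filter its log2 difference was -0.01 with an interval of -0.58 to 0.56 (limma adjusted p = 0.997). At intensities this low that says little about the chain.

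Cd74, the MHC class II invariant chain, was at 444, 304, 289 and 246 in saline 14, 15, 17 and 19 and at 667, 403, 460 and 342 in olanzapine 9, 14, 18 and 19. Olanzapine 9 was the highest array, and the groups overlapped because saline 14 was above 2 of the olanzapine arrays. The means were 321 ± 85.9 and 468 ± 141 (SD, n = 4 each). The log2 difference was 0.46 with an interval of 0.04 to 0.88 (limma p = 0.0346, adjusted p = 0.549, exact permutation p = 0.0857). It was 0.29 without olanzapine 9, and 0.36 to 0.60 without each of the others.

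Aif1 had a tested probe set, 1368558_s_at, at 196, 185, 167 and 131 in saline 14, 15, 17 and 19 and at 260, 162, 246 and 176 in olanzapine 9, 14, 18 and 19. Olanzapine 9 and 18 were the high arrays and saline 19 the low one. Its log2 difference was 0.23 with an interval of -0.18 to 0.64 (limma adjusted p = 0.808, exact permutation p = 0.257). Without olanzapine 9, and likewise without saline 19, it was 0.14. The dim probe set 1369489_at, listed for the same gene, was at 80.4, 45.7, 10.1 and 67.5 in saline and at 14.8, 9.97, 47.3 and 54.1 in olanzapine, in the same order of animals. Its log2 difference was -0.25 with an interval of -0.78 to 0.27 (limma adjusted p = 0.879), and the difference between the 2 probe sets was not tested.

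**Figure D2:**
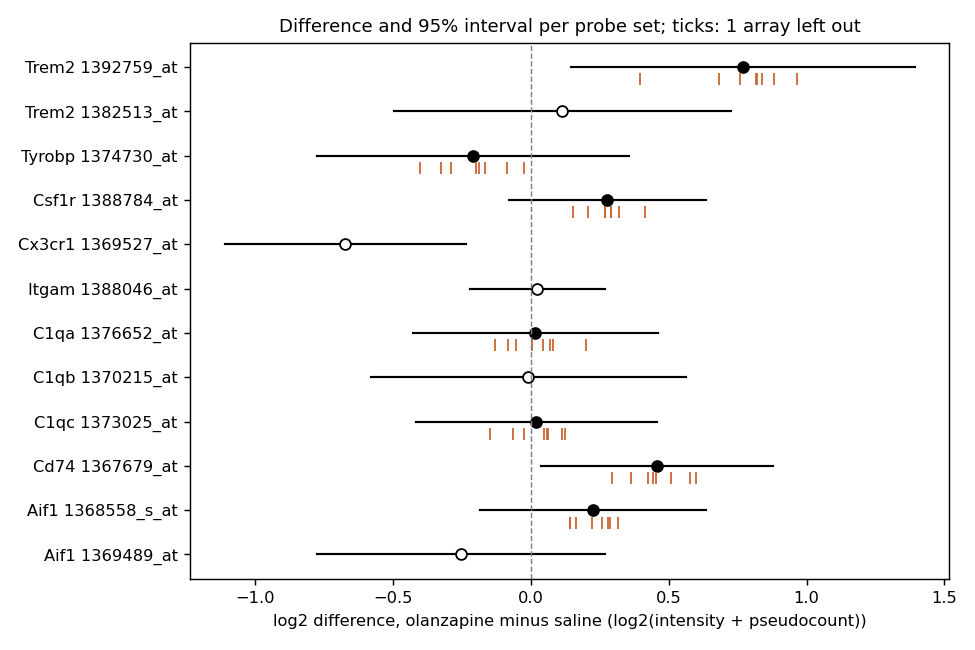
Log2 difference, olanzapine minus saline, of each probe set with its 95% interval (x axis, log2 units). Filled points are the 7 tested probe sets, open points the 5 below the filter, fitted without it, and orange ticks give the value of a tested probe set with 1 array left out. Trem2 1392759_at, at 0.77, and Cd74, at 0.46, have intervals above 0, and Cx3cr1, at -0.67, has one below 0, and none of them passed the adjusted test.

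The 7 tested genes did not vary as one block across the arrays. Pearson correlations of log2 values over the 8 arrays were computed for 21 pairs, of which 15 were above 0 and 6 below, with a median of 0.26. The closest pair was Cd74 and Aif1, with r = 0.87 (exact permutation p = 0.00469, adjusted over the 21 pairs 0.0984) and Spearman's rho = 0.83 (exact permutation p = 0.0154, adjusted 0.323). Without olanzapine 9 and saline 19, the arrays farthest from the median of Cd74, r was 0.61. After the group means were removed it was 0.82. By Pearson's r 0 of the 21 pairs passed the adjustment, and 1 had an unadjusted p under 0.05.

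The receptor Trem2 and its adaptor Tyrobp had r = 0.33 (exact permutation p = 0.446, adjusted 0.885), rho = 0.19 (exact permutation p = 0.665) and r = -0.17 without saline 17 and olanzapine 14. After the group means were removed r was 0.68, the second highest of the 21 pairs. Saline 17 was the lowest array for both genes, and the r of 0.68 was not computed again without it. C1qa and C1qc, chains of 1 complex, had r = 0.40 (exact permutation p = 0.317, adjusted 0.832), rho = 0.38 (exact permutation p = 0.360) and r = -0.40 without saline 19 and olanzapine 14, so that relation rests on those arrays. After the group means were removed r was 0.40. Whether these pairs differ in closeness from the others was not tested.

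The genes whose pattern was most like the mean of C1qa and C1qc over the 8 arrays, after the group means were removed, were ranked among 10116 genes by Pearson's r. They were Slc12a7 (0.99), Sympk (0.98), Cdx2 (0.97), Shroom1 (0.96) and Dusp22 (0.96), none of them in the lists of microglial genes used here. Slc12a7 was at 108, 151, 151 and 244 in saline 14, 15, 17 and 19 and at 165, 215, 119 and 107 in olanzapine 9, 14, 18 and 19. Like C1qa, it was highest in saline 19 and, within its group, in olanzapine 14. Gpr34 was the most alike of the listed microglial genes, at rank 183 (r = 0.79). With 8 arrays, high values of r occur among so many genes, and these are given as a description.

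**Figure D3:**
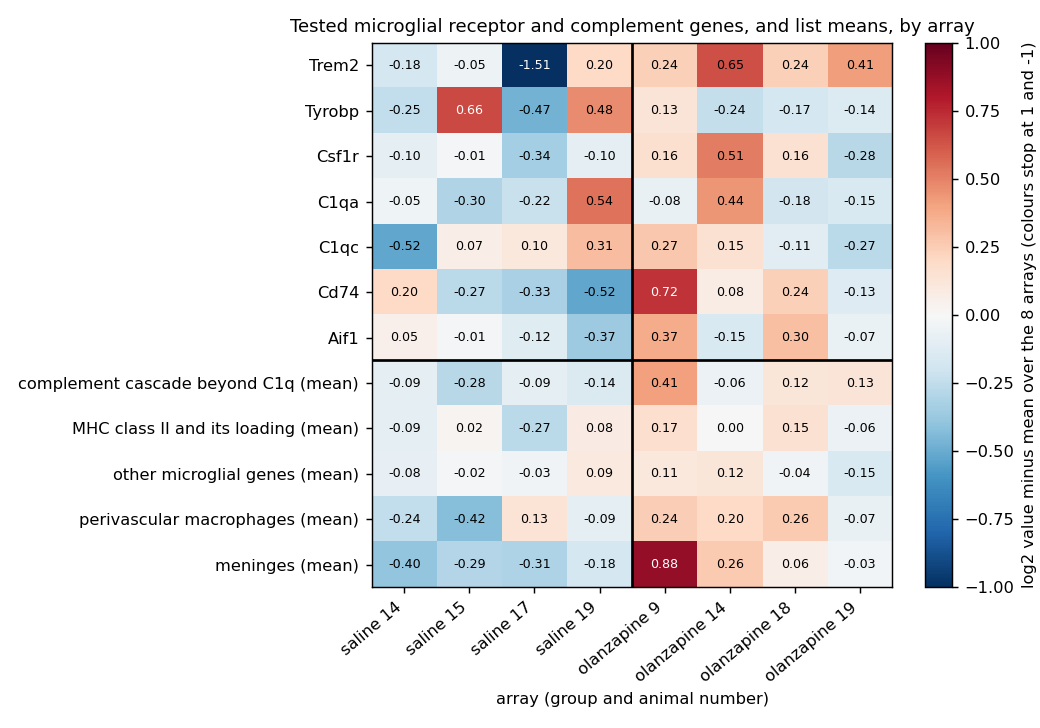
Log2 value of each tested gene, or mean log2 value of a list, minus its mean over the 8 arrays (colour and printed number, log2 units), by array. Saline arrays are left of the vertical line and olanzapine arrays right of it. Saline 17 stands at -1.51 in Trem2, and olanzapine 9 at 0.72 in Cd74 and 0.88 in the mean of the meningeal markers.

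Ligands and signalling partners of these receptors were a list of 18 genes, of which 17 were on the array and 12 passed the filter. Of the 12, 9 had a log2 difference above 0 and 0 passed the adjusted test, with a median of 0.15. Among all 10123 tested genes 53.4% had a difference above 0, which is the share to set beside the counts of every list below. At an unadjusted limma p under 0.05, 430 of the 10123 had a difference above 0 and 428 one below 0. Adam17, the protease that sheds Trem2 and Cx3cl1 from the cell surface, differed by 0.37 (SE 0.17, limma adjusted p = 0.598), with intensities of 312 to 597 in saline and 451 to 654 in olanzapine. The adaptor Grb2 differed by 0.17 (SE 0.09) and the Csf1r ligand Csf1 by 0.32 (SE 0.21). The following were named after their values were seen, as ligands or partners of the receptors above. Il34, the other Csf1r ligand, differed by 0.13 (SE 0.15), Cx3cl1 by -0.09 (SE 0.11), the Trem2 ligand Apoe by 0.03 (SE 0.16) and the Itgam partner Itgb2 by 0.32 (SE 0.25). For both Csf1r ligands, and for the ligand of Cx3cr1, the groups overlapped.

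In the complement cascade beyond C1q, 15 of 23 listed genes were on the array and 6 passed the filter, of which 5 had a difference above 0, with a median of 0.15. The 2 at an unadjusted p under 0.05 encode the proteases that bind C1q to form the C1 complex. C1s was at 193, 27.1, 142 and 108 in saline 14, 15, 17 and 19 and at 355, 226, 175 and 203 in olanzapine 9, 14, 18 and 19. Its log2 difference was 0.81 (SE 0.29, limma p = 0.0135, adjusted p = 0.487, exact permutation p = 0.0571). In saline alone its mean log2 lay below the filter. C1s was therefore tested only because of its olanzapine values, which favours a difference above 0. C1r was at 114, 42.8, 297 and 124 in saline and at 308, 167, 345 and 211 in olanzapine, in the same order of animals. Its log2 difference was 0.73 (SE 0.31, limma p = 0.0314, adjusted p = 0.539, exact permutation p = 0.143). Saline 15 was the lowest array for both, and without it C1s differed by 0.51 and C1r by 0.45. The inhibitor Cd55 differed by 0.23 (SE 0.25), and C3, named after its value was seen as the central component, by -0.03 (SE 0.19). Cd55, like C1s, passed the filter only through its olanzapine values. That favours differences above 0 in the count of 5 and in the list's median of 0.15. In C1r and C1s the olanzapine means were higher while the tested C1q chains, C1qa and C1qc, had differences near 0. Whether these differ from each other was not tested.

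Of the MHC class II genes, 10 of 12 listed were on the array and 8 passed the filter, with 6 differences above 0 and a median of 0.09. Ifi30, a thiol reductase of antigen processing, was at 265, 147, 201 and 303 in saline 14, 15, 17 and 19 and at 379, 330, 430 and 280 in olanzapine 9, 14, 18 and 19, and differed by 0.53 (SE 0.19, limma p = 0.0146, adjusted p = 0.491, exact permutation p = 0.0571). RT1-DMa, a chain of the peptide loader, differed by 0.38 (SE 0.20) and the class II chain RT1-Bb by -0.19 (SE 0.18). Thus Cd74, Ifi30 and RT1-DMa had higher means in olanzapine, and RT1-Bb did not. The other tested genes of the list, named after their values were seen, lay nearer to 0. RT1-DMb differed by 0.13 (SE 0.27), Ciita by 0.09 (SE 0.19), RT1-Da by 0.09 (SE 0.25), Lgmn by 0.02 (SE 0.11) and Ctss by -0.002 (SE 0.09). Over all alternatives the list median ran from -0.05 to 0.18.

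Other microglial genes were the largest list, with 28 of 36 on the array and 17 past the filter. Of the 17, 10 had a difference above 0 and 7 below, 0 had an unadjusted p under 0.05, and the median was 0.08. Lcp1, among the 10, passed the filter only through its olanzapine values. Coro1a, an actin-binding protein of leukocytes, was at 493, 440, 516 and 514 in saline 14, 15, 17 and 19 and at 575, 579, 586 and 591 in olanzapine 9, 14, 18 and 19. All olanzapine values lay above all saline values, and the difference was 0.22 (SE 0.12, limma adjusted p = 0.672). The TGF-beta receptor gene Tgfbr1 differed by 0.22 (SE 0.13) and Sall1, a factor of microglial identity, by 0.13 (SE 0.09). P2ry12 and Tmem119, the homeostatic markers named above, differed by -0.12 (SE 0.13) and -0.06 (SE 0.18). Of 23 genes of reactive microglia and cytokines, all on the array, only 9 passed the filter, with a median of 0.05, and the 3 with the smallest p were Gpnmb at -0.25 (SE 0.21), Cd86 at 0.21 (SE 0.24) and Cd40 at -0.16 (SE 0.19).

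**Figure D4:**
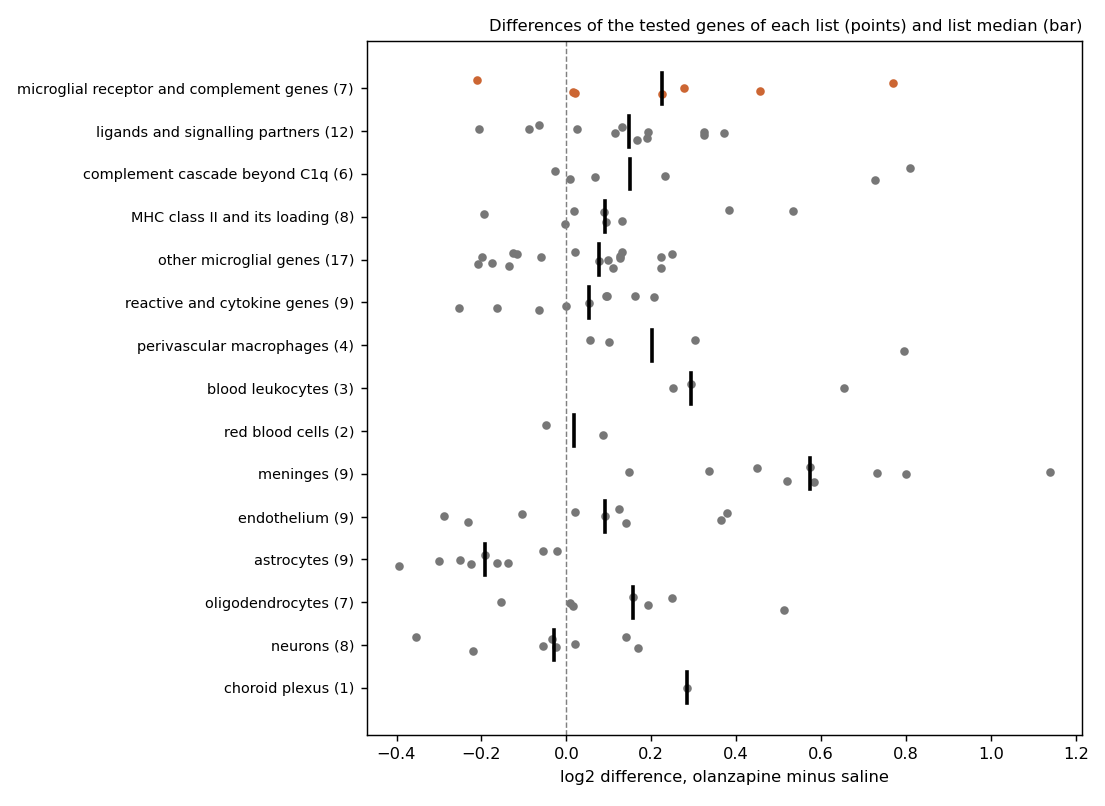
Log2 difference, olanzapine minus saline (x axis, log2 units), of each tested gene (point), by list, with the list's median as a black bar and the number of tested genes in brackets. The microglial receptor and complement genes are in orange. Their median is 0.23, that of the other microglial genes 0.08 and that of the meningeal markers 0.57.

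Of the markers of other cell types, 0 passed the adjusted limma test in any list. Of the perivascular macrophage markers 4 of 8 passed the filter and 4 of the 4 had a difference above 0, with a summed intensity of 657 to 1091 in saline and 845 to 1135 in olanzapine and a median difference of 0.20. Stab1, a scavenger receptor of such cells, was at 80.1, 39.9, 109 and 97.1 in saline 14, 15, 17 and 19 and at 172, 150, 204 and 214 in olanzapine 9, 14, 18 and 19, a difference of 0.80 (SE 0.22, limma p = 0.00278, adjusted p = 0.355, exact permutation p = 0.0286). All 4 saline values of Stab1 lay below the filter's intensity of about 114. It was therefore tested only because of its olanzapine values, which favours a difference above 0 in its p and in the count of 4. Lyve1 differed by 0.30 (SE 0.22) and Cd163 by 0.10 (SE 0.20). Of the blood leukocyte markers 3 of 12 passed, with a summed intensity of 1210 to 1537 in saline and 1565 to 2033 in olanzapine and a median of 0.29, and 0 of the 3 had an unadjusted limma p under 0.05. In each of the 3 the groups overlapped. In saline alone the mean log2 of Cd3e lay below the filter. Cd3e was therefore tested only because of its olanzapine values, which favours a difference above 0. Its difference of 0.29 was the median of the list. Most of each sum was Lyz2, at 1047 to 1284 in saline and 1204 to 1673 in olanzapine. The highest sum, in olanzapine 18, held S100a8 at 686, against 122 to 182 in the other olanzapine arrays.

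Of the meningeal markers 9 of 12 passed the filter, all 9 had a difference above 0, 6 of them at an unadjusted limma p under 0.05 and 0 after adjustment, and the summed intensity was 2679 to 3532 in saline and 3640 to 9480 in olanzapine. All 4 saline values of the meningeal marker Dcn lay below the filter's intensity of about 114. Dcn was therefore tested only because of its olanzapine values, which favours a difference above 0 in the count of 9. Olanzapine 9 had the highest sum, as it had the highest Cd74. The lowest value of the whole table was 0.24 and none was 0, so the values alone cannot say whether meningeal cells were absent. The part of these cells in the Cd74, Trem2, C1r and C1s values was not tested. Of the astrocyte markers all 9 passed the filter and all 9 had a difference below 0, with a median of -0.19, 3 of them at an unadjusted limma p under 0.05. Of the neuron markers 8 of 9 passed, with 5 differences below 0, 2 of them at such a p, and a median of -0.03. Gad2, with a difference of 0.17, passed the filter only through its olanzapine values. Among all 10123 tested genes 4722 had a difference below 0. At an unadjusted limma p under 0.05, 428 of the 10123 had a difference below 0 and 430 one above 0. Several of the astrocyte and neuron markers, such as Glul and Snap25, were among the brightest transcripts, which were dimmer in olanzapine. The part of that in their differences was not tested. Over the alternatives the astrocyte median ran from -0.24 to -0.08. Of the oligodendrocyte markers 6 of 7 and of the endothelial markers 6 of 9 had a difference above 0. In each, 1 had an unadjusted limma p under 0.05, and the medians were 0.16 and 0.09. The 2 red blood cell markers lay on either side of 0, with a median of 0.02.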

How the data were processed

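Expression was measured on an Affymetrix rat array in 8 frontal cortex samples, 4 saline and 4 olanzapine. The authors deposited linear intensities, 1 per probe set, on 8 arrays; all are above 0, and the mean without the lowest and highest 2% was about the same on every array. How probes were summarised, background removed or presence called is not given in the sources used here. One factor for a whole array cannot remove differences between arrays that depend on brightness.

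Gene names are those of the platform annotation of 2016, with symbols of other genes updated by Entrez identifier from a RefSeq table of GRCr8. Of 31042 that were not controls, 20826 had 1 symbol, 436 several and 9780 none. Intensities were converted to log2(intensity + 63.5), the 25th percentile of all values, and probe sets at or below the 40th percentile of mean log2 were left out, leaving 18625. Olanzapine was compared with saline in limma 3.58.1 under R 4.3.3 (lmFit, eBayes with trend, two-sided, Benjamini-Hochberg over all tested probe sets, threshold 0.05), after a test on simulated data. Exact permutation tests of 116 probe sets, those of the 10 genes and of the tested listed genes, and of 21 pairs used Python 3.11.15 and scipy 1.17.1. A list has 1 probe set per gene, the brightest, and is described by counts and its median.

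The 10 genes and the lists were chosen with earlier results of these data known. The text names all 10 genes, the 3 genes of each related list with the smallest p and the 5 genes most like C1q. Some further genes of the related lists were named after their values were seen. For marker lists of other cell types the same rule was written. After the values were seen, genes are named there for perivascular macrophages, blood leukocytes and checks of the tissue. Dcn and Gad2 are named because they passed the filter only through their olanzapine values. Alternatives were quantile normalization, cyclic loess, median centring, an added value of 16, no filter, no trend, array weights, the animal number as a block, and leaving out each array. The samples are separate animals.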

Additional observations from a re-analysis of the deposited data

Results flagged for a closer look

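Of the 24 groups of 4 values that the 12 probe sets give, 2 held an array far from the other 3 by the ratio of its gap to the group's range, by Dixon's 95% limit for 4 values, where chance gives about 1 in 20. In Itgam, saline 15 was at 21.9 and the other 3 saline arrays at 4.18 to 5.31, all among the dimmest values of the array. In C1qa, olanzapine 14 was at 394 and the other 3 olanzapine arrays at 233 to 256, with a ratio of 0.8299, only just past the limit. The low value of saline 17 in Trem2 1392759_at, 38.3, did not pass that limit.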

How the results depend on the processing

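With any alternative, 0 of the 7 tested probe sets passed the adjusted test, and the adjusted p of Trem2 ran from 0.186 to 0.966. Trem2, Csf1r, Cd74 and Aif1 kept a difference above 0 and Tyrobp one below 0 in all 16 alternatives. C1qa was -0.0495 with cyclic loess, -0.0367 with median centring, -0.0556 with quantile normalization and -0.10 with the replicate block, and C1qc was -0.0466, -0.0320 and -0.0431 in the first 3. With 1 array left out C1qa ran from -0.13 to 0.20 and C1qc from -0.15 to 0.125. The number of the 7 at an unadjusted p under 0.05 was 1 with array weights, cyclic loess, median centring and quantile normalization, 0 with the replicate block and 1 to 3 with 1 array left out. Over all probe sets 0 to 107 passed the adjusted test with 1 array left out, 107 without saline 19, and 6 with the replicate block, where 991 had an unadjusted p under 0.05 in place of 1549. The block rests on the numbers 14 and 19, which both groups share; deviations of same-numbered arrays correlated at 0.07 and 0.11, the labels do not say that numbers pair animals, and samples share only a number. In it Cd55 was -0.18, Gpnmb 0.000676 and Cd163 -0.10, and Trem2 was 0.52, Cd74 0.13, Ifi30 0.08 and Aif1 0.05, the last also being the median over the 7 genes. Cd163 ran from -0.0257 to 0.29 with 1 array left out. The cause of these shifts was not tested. The alternatives for Cx3cr1 were chosen after seeing the data, and its difference stayed below 0 in each, from -1.32 to -0.46. Over all probe sets the share above 0 ran from 45.0% with median centring to 57.5% without saline 19. List medians moved too. Over all alternatives they were 0.07 to 0.19 for ligands and partners, 0.05 to 0.305 for complement beyond C1q and -0.05 to 0.18 for MHC class II. They were -0.03 to 0.11 for other microglial genes, 0.13 to 0.33 for perivascular macrophages and 0.41 to 0.66 for meninges. With 4 arrays in each group and dim probe sets, intervals were wide.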
